A study of Arabidopsis thaliana with 24 samples.

Results

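Gibberellin is a growth hormone of plants, and its response runs through a short chain of proteins. The hormone binds a GID1 receptor, the occupied receptor binds a DELLA protein, and the F-box protein SLY1 brings the DELLA protein to an ubiquitin ligase that marks it for destruction. DELLA proteins restrain growth by binding transcription factors, PIF4 among them, and in dark-grown seedlings gibberellin keeps them low while the hypocotyl elongates. The chain also feeds back on its own transcripts, because DELLA activity is known to raise GID1 and GA3OX1 messages.

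Described here are the 9 Arabidopsis genes of this chain, taken from the 32328 genes with values by their identifiers. The genes were chosen with earlier results of these data known, though by no rule on measured values. They are 5 DELLA genes, GAI (AT1G14920), RGA (AT2G01570), RGL1 (AT1G66350), RGL2 (AT3G03450) and RGL3 (AT5G17490), then 3 receptor genes, GID1A (AT3G05120), GID1B (AT3G63010) and GID1C (AT5G27320), and SLY1 (AT4G24210), which the deposited table calls GID2. All 9 passed the filter on low counts, with 9 to 2059 reads per library. In the RefSeq annotation of TAIR10.1 no other gene overlaps any of them. GAI and RGA are close paralogs, and how the authors' counting treated reads that match both is not given in the sources used here.

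The libraries are from polyA RNA of whole seedlings in the Columbia background, germinated under white light and kept in darkness for 3 days. The groups are pif4-101 mutants moved to 37 °C for 3 h, pif4-101 mutants left at 22 °C, WT seedlings moved to 37 °C for 3 h and WT seedlings left at 22 °C, with 3 libraries each, lettered a to c. The labels name 24 samples in all, of which 12 belong to PIF4pro:PIF4-3xFlag lines, and these were not analysed here. Nothing in the labels says whether the 3 libraries of a group came from separate sowings, so p-values measure only the spread between these libraries, which may be technical. The labels do not describe the pif4-101 lesion.

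Library totals ran from 5940624 to 10662414 reads in heated pif4 and 3360759 to 8263355 in heated WT, against 3176106 to 11099980 in unheated pif4 and 3234886 to 14791597 in unheated WT. PIF4 transcript averaged 17.5 ± 6.42 CPM in unheated pif4 and 9.98 ± 2.90 CPM in unheated WT, and 22.1 ± 0.532 CPM in heated pif4 and 28.8 ± 5.91 CPM in heated WT (SD, n = 3 each). It therefore does not check the genotype, and pif4 below means the libraries carrying that label. Levels are CPM, reads scaled to a common library size by TMM, which uses the bulk of the genes. Root endodermis markers, 5 CASP genes, summed to 285 to 322 CPM in heated pif4 and 355 to 524 CPM in unheated pif4, and to 196 to 257 CPM in heated WT and 411 to 496 CPM in unheated WT, with no marker at 0 reads. The sum of 3 epidermis markers overlapped between temperatures in both genotypes. In such bulk RNA fewer cells of a type and less RNA per cell cannot be told apart, and the part of tissue makeup in the results below was not tested.

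Of the 5 DELLA genes, under TMM scaling, RGA and RGL1 were called in pif4 and RGA, RGL1 and RGL2 in WT, while GAI and RGL3 were called in neither genotype. RGA, which with GAI is the main DELLA repressor of hypocotyl growth, rose 1.80-fold in pif4 and 2.11-fold in WT under TMM scaling, while scaling by total counts put it at -0.18 (log2) in pif4 and 0.06 in WT, neither of them called. RGL1, a DELLA gene with roles in flowers and seeds, fell 5.11-fold in pif4 and 5.25-fold in WT. Among the receptors GID1B rose 2.30-fold in pif4 and 2.92-fold in WT under TMM, and scaling by total counts put it at 0.16 (log2) in pif4 and 0.53 in WT, again without a call. In pif4, 3 of the 9 genes were called higher and 1 lower by edgeR's quasi-likelihood test at an adjusted p under 0.05, on a background of 49.7% of all 18774 tested genes called, 25.6% higher and 24.1% lower. In WT, 2 were called higher and 2 lower, on a background of 51.5%, 25.5% higher and 26.0% lower. The members' shares lie near these backgrounds, so the counts are no result about the chain, and the genes are given one by one.

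RGA had 215, 158 and 168 CPM in heated pif4, against 118, 85.1 and 98.7 CPM in unheated pif4. It had 246, 190 and 242 CPM in heated WT, against 126, 102 and 94.2 CPM in unheated WT. Every heated library lay above every unheated one of its genotype. The log2 change was 0.84 ± 0.17 in pif4 (SE, n = 3 against 3, edgeR adjusted p = 0.000339) and 1.08 ± 0.17 in WT (edgeR adjusted p = 2.36e-05).

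GAI, the close paralog of RGA, was not called. It averaged 44.7 ± 3.65 CPM in heated and 50.6 ± 12.9 CPM in unheated pif4 (SD, n = 3 each), a log2 value of -0.17 ± 0.18 (SE, edgeR adjusted p = 0.449). It averaged 55.4 ± 2.29 CPM in heated and 57.2 ± 6.13 CPM in unheated WT, a log2 value of -0.04 ± 0.18 (edgeR adjusted p = 0.870). The temperatures overlapped in both genotypes. GAI was called lower under total counts in both genotypes and under upper-quartile scaling in pif4 (-0.51, edgeR adjusted p = 0.0196), the adjusted p over 19 alternatives running from 5.41e-06 to 0.895 in pif4 and 1.83e-05 to 0.969 in WT.

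RGL1 had the largest log2 change of the 9 genes in both genotypes. It had 3.60, 4.005 and 4.22 CPM in heated pif4, against 27.4, 14.6 and 19.5 CPM in unheated pif4. It had 5.10, 2.97 and 3.22 CPM in heated WT, against 19.1, 18.0 and 19.3 CPM in unheated WT. No heated library reached the lowest unheated one in either genotype. The log2 change was -2.35 ± 0.30 in pif4 (SE, n = 3 against 3, edgeR adjusted p = 2.26e-06) and -2.39 ± 0.32 in WT (edgeR adjusted p = 3.20e-06). The heated values rest on few reads, 15 to 30 per library in pif4 and 12 to 18 in WT.

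RGL2, the main DELLA repressor of seed germination, had 6.95, 5.21 and 3.38 CPM in heated pif4, against 9.45, 7.43 and 10.6 CPM in unheated pif4. It had 3.83, 1.57 and 5.18 CPM in heated WT, against 8.72, 8.29 and 7.82 CPM in unheated WT. The temperatures did not overlap in either genotype. The log2 value in pif4, -0.84 ± 0.39 (SE, edgeR adjusted p = 0.0829), missed the threshold but passed it in 4 of 19 alternatives, with adjusted p from 0.000342 to 0.247. In WT RGL2 fell by 1.24 ± 0.42 on the log2 scale (edgeR adjusted p = 0.0178). That call was lost when heated WT library b was left out (edgeR adjusted p = 0.0983) and when the 4 libraries lettered a were (0.0632), the range over 19 alternatives being 8.86e-05 to 0.0983.

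RGL3, a DELLA gene known for jasmonate and stress responses, was not called under TMM scaling. It had 5.76, 3.60 and 3.89 CPM in heated pif4, against 8.72, 4.99 and 5.67 CPM in unheated pif4 (log2 value -0.54 ± 0.40, SE, edgeR adjusted p = 0.271). It had 10.6, 4.89 and 4.82 CPM in heated WT, against 7.81, 6.94 and 8.23 CPM in unheated WT (-0.24 ± 0.39, edgeR adjusted p = 0.624). Heated WT library a was the highest of all 12, while heated WT libraries b and c lay below every unheated WT library. Under total counts RGL3 was called lower in both genotypes, at -1.56 in pif4 (edgeR adjusted p = 0.00176) and -1.26 in WT (0.00678).

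**Figure D1:**
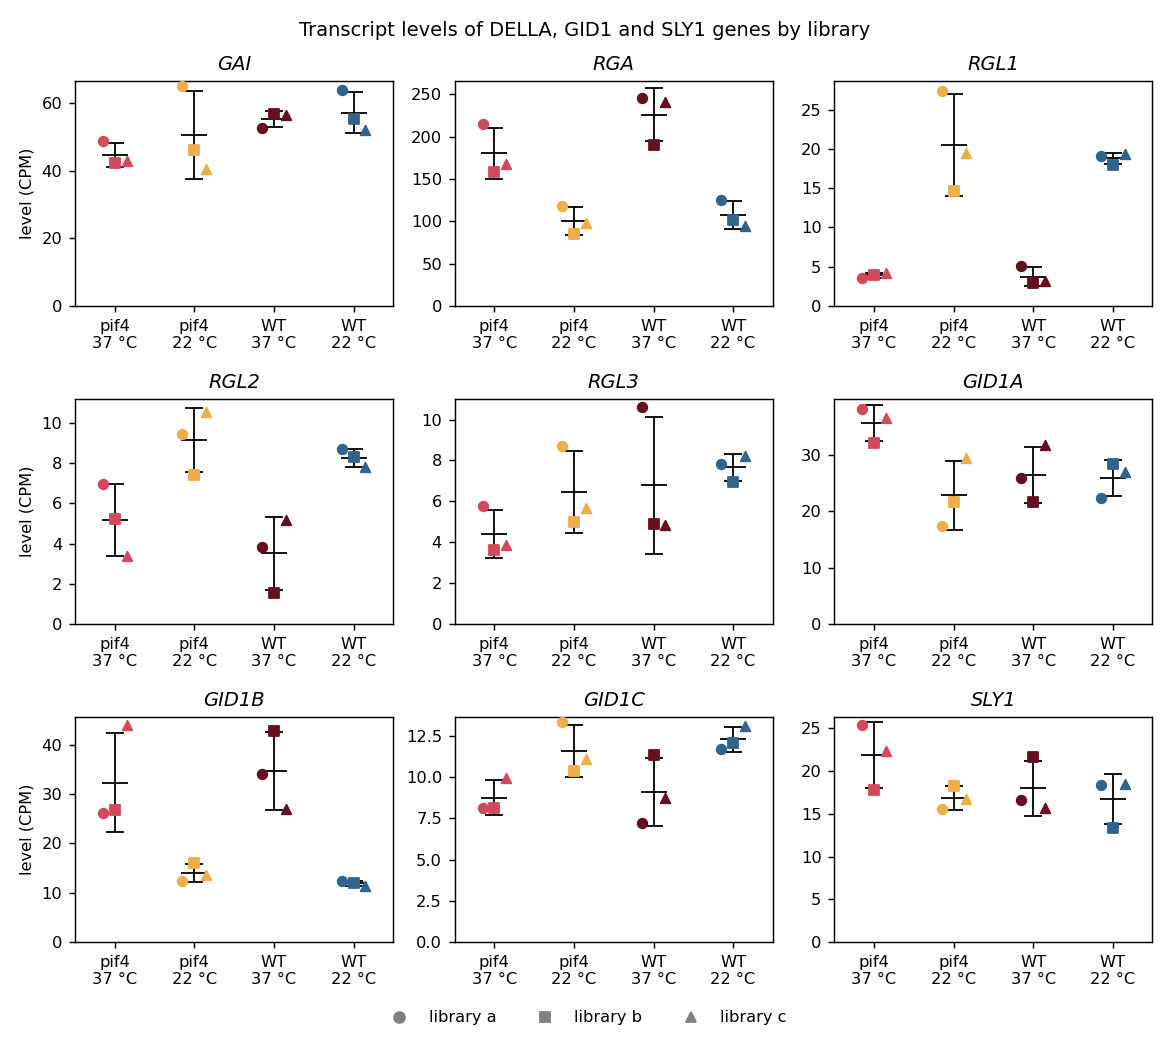
Level of each gene in CPM (y axis, from 0) in every library, with the group mean and SD as black bars, n = 3 per group. In TMM-scaled CPM, RGA and GID1B sit higher at 37 °C and RGL1 lower in both genotypes, with no overlap between temperatures; with total counts RGA turned to -0.18 (log2) in pif4 and the RGA and GID1B calls were lost in both genotypes.

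Of the receptors, GID1B rose. The GID1 proteins are soluble receptors with overlapping roles, and GID1B is known to bind gibberellin most tightly. GID1B had 26.1, 26.8 and 43.9 CPM in heated pif4, against 12.4, 15.95 and 13.7 CPM in unheated pif4. It had 34.0, 42.8 and 27.0 CPM in heated WT, against 12.4, 11.96 and 11.3 CPM in unheated WT. The heated libraries spread widely, yet all lay above all unheated ones. The log2 change was 1.20 ± 0.24 in pif4 (SE, n = 3 against 3, edgeR adjusted p = 0.000353) and 1.55 ± 0.24 in WT (edgeR adjusted p = 2.43e-05). Both calls were lost under scaling by total counts, with edgeR adjusted p of 0.587 in pif4 and 0.0724 in WT, the highest over 19 alternatives each.

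GID1A had 38.1, 32.04 and 36.5 CPM in heated pif4, against 17.4, 21.6 and 29.4 CPM in unheated pif4, with no overlap. It was called higher there, at 0.61 ± 0.21 (log2, SE, edgeR adjusted p = 0.0226). In WT it had 25.9, 21.6 and 31.6 CPM in heated libraries, against 22.3, 28.3 and 26.9 CPM in unheated ones, which overlap (0.02 ± 0.22, edgeR adjusted p = 0.945). Under total counts GID1A was called lower in WT (-1.007, edgeR adjusted p = 0.000985). The call in pif4 held in 11 of 19 alternatives, with adjusted p from 0.00707 to 0.298. These 11 include every fit that left out a WT library, which is not in this comparison. By edgeR it was lost under RLE (adjusted p = 0.0529), upper-quartile (0.298) and total-count scaling (0.102), where the value turned to -0.43. It was also lost without the libraries lettered a (0.262), and DESeq2 kept it at an adjusted p of 0.04997. Leaving out any 1 of 4 pif4 libraries lost it too, heated a (0.0683), heated c (0.0532), unheated a (0.101) and unheated b (0.0752). Whether heat acted differently in the genotypes was tested directly and was not called (0.59 ± 0.31, pif4 minus WT, edgeR adjusted p = 0.915, unadjusted p = 0.0665).

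GID1C averaged 8.76 ± 1.05 CPM in heated and 11.6 ± 1.55 CPM in unheated pif4, and 9.11 ± 2.08 CPM in heated and 12.3 ± 0.738 CPM in unheated WT (SD, n = 3 each). Heated libraries all lay below unheated ones of their genotype. The log2 values of -0.39 ± 0.27 in pif4 (SE, edgeR adjusted p = 0.242) and -0.41 ± 0.27 in WT (edgeR adjusted p = 0.218) were not called. GID1C was called lower under upper-quartile scaling, at -0.74 in pif4 (edgeR adjusted p = 0.0268) and -0.72 in WT (0.0291), and under total counts, the adjusted p over 19 alternatives running from 0.000176 to 0.478 in pif4 and 0.000170 to 0.419 in WT.

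SLY1, the F-box subunit that selects DELLA proteins for destruction, averaged 21.8 ± 3.85 CPM in heated and 16.8 ± 1.38 CPM in unheated pif4 (SD, n = 3 each). It averaged 18.0 ± 3.20 CPM in heated and 16.7 ± 2.93 CPM in unheated WT. The temperatures overlapped in both genotypes. The log2 values were 0.36 ± 0.23 in pif4 (SE, edgeR adjusted p = 0.202) and 0.12 ± 0.24 in WT (edgeR adjusted p = 0.684). Under total counts SLY1 was called lower, at -0.67 in pif4 (edgeR adjusted p = 0.0196) and -0.89 in WT (0.00381). SNE, its F-box paralog, had 3 to 13 reads summed per group and was not tested.

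The CPM of heated and unheated libraries did not overlap for 6 of the 9 genes in pif4, on a background of 59.3% of all tested genes, and for 5 of the 9 in WT, on a background of 58.9%.

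**Figure D2:**
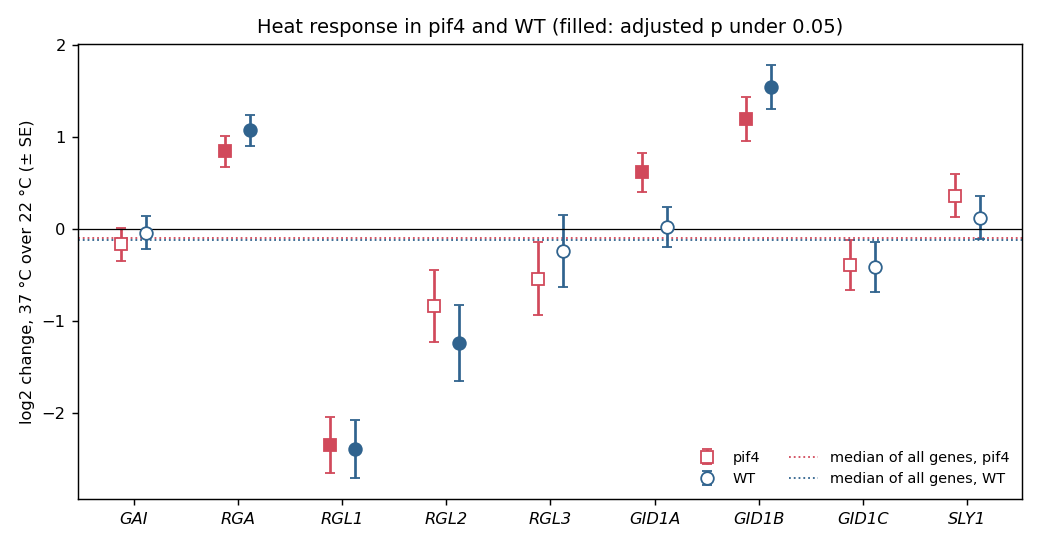
Log2 change with heat (37 °C over 22 °C, y axis) of each gene with its SE in pif4 (squares) and WT (circles), filled where the adjusted p is under 0.05, with dotted lines at the median of all genes. Under TMM scaling RGA and GID1B are filled above 0 and RGL1 below 0 in both genotypes; with total counts RGA turned to -0.18 in pif4 and neither RGA nor GID1B was called.

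These directions depend on how libraries are scaled. The TMM factors ranged from 0.678 to 0.734 in heated libraries and from 1.30 to 1.50 in unheated ones. With total counts as library size the median of all genes lay at -1.13 in both genotypes, in place of -0.10 in pif4 and -0.12 in WT under TMM. On that scale RGA lay at -0.18 in pif4 and 0.06 in WT, and GID1B at 0.16 in pif4 and 0.53 in WT, none of them called (edgeR adjusted p from 0.0724 to 0.732, against 6.35e-08 to 0.732 over all alternatives of these 4 values). RGL1 was called lower under total counts too, at -3.36 in pif4 and -3.41 in WT. There, 6 of the 9 genes in pif4 and 7 in WT were called lower and 0 higher. Of all 18774 tested genes, 11641 were lower and 1755 higher in pif4, and 11642 lower and 1785 higher in WT. Of those calls 13.1% in pif4 and 13.3% in WT were higher, and the members' counts are no result about the chain.

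Each scaling multiplies all counts of a library by 1 factor. Each gene's distance from the median gene was therefore bound to move little between these scalings, and its steadiness is no result. RGA lay 0.94 above the median gene on the log2 scale in pif4 under TMM and 0.96 under total counts, and 1.19 above it in WT under both. GID1B lay 1.30 and 1.29 above it in pif4 and 1.66 and 1.67 in WT, and RGL1 at -2.25 and -2.23 in pif4 and -2.28 under both in WT. In the order of all heat changes under TMM, GID1B stood at percentile 85.2 in pif4 and 89.1 in WT. RGA stood at 78.4 in pif4 and 83.0 in WT, and RGL1 at 7.08 in pif4 and 8.95 in WT. GAI was near the middle, at 47.8 in pif4 and 52.6 in WT.

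**Figure D3:**
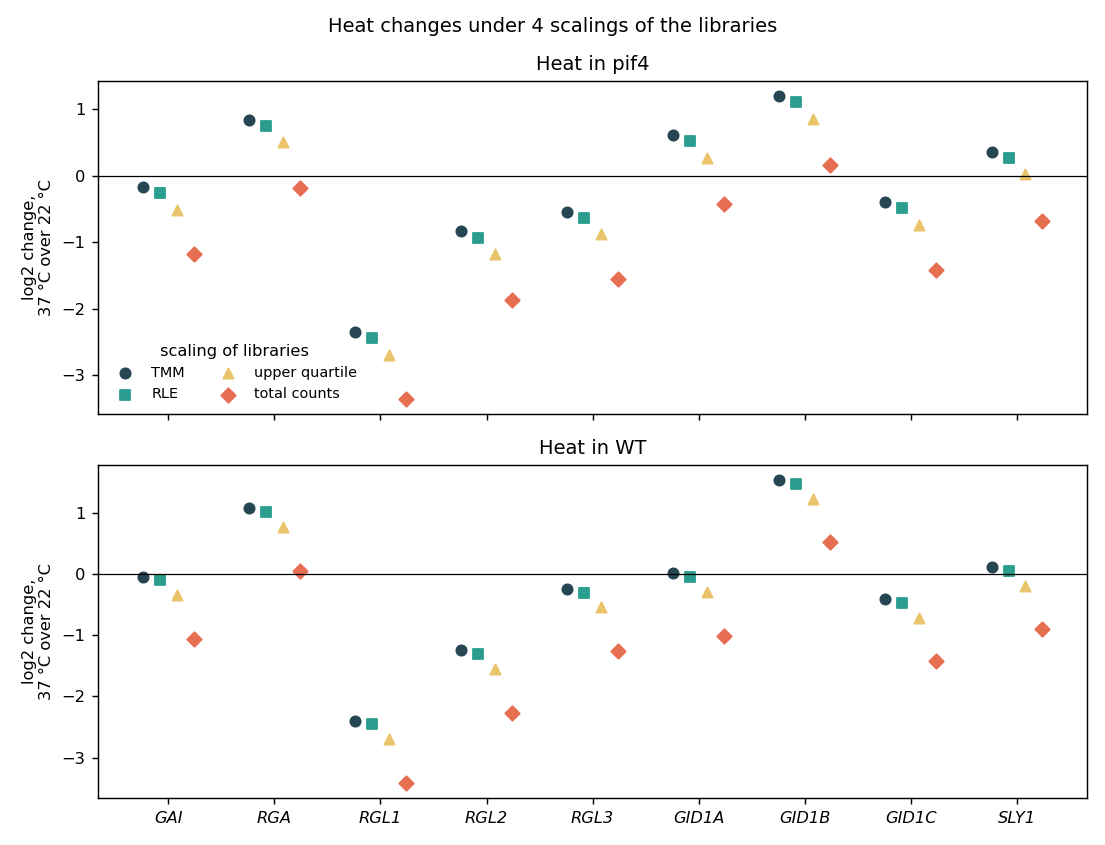
Log2 change with heat (y axis) of each gene in pif4 (upper panel) and WT (lower panel) under TMM, RLE, upper-quartile and total-count scaling. Values shift down together by about the same amount under total counts, as rescaling whole libraries must make them. RGA and GID1B come closer to 0 and the order of the 9 genes stays nearly the same.

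Shares within the family, taken inside each library, do not depend on the scaling, and are given as a description with no test. Each level was divided by the length of the longest RefSeq transcript, 2082 to 2434 bases for the DELLA genes and 1844 to 2039 bases for the receptors, and set against the family's sum. RGA made up 75.9 ± 1.29% of DELLA transcripts in pif4 at 37 °C and 53.9 ± 2.38% at 22 °C, and 76.8 ± 1.84% in WT at 37 °C and 53.8 ± 2.07% at 22 °C (SD, n = 3 each). RGL1 made up 1.89 ± 0.393% in pif4 at 37 °C and 12.005 ± 1.54% at 22 °C, and 1.42 ± 0.333% in WT at 37 °C and 10.6 ± 1.20% at 22 °C. GAI held 18.1 ± 1.21% in pif4 at 37 °C and 25.7 ± 3.18% at 22 °C, and 18.22 ± 2.83% in WT at 37 °C and 27.4 ± 0.292% at 22 °C. For RGA, RGL1 and GAI, and also for RGL2 and RGL3, both lower at 37 °C, the shares did not overlap between temperatures in either genotype. Shares of a family add up to the whole, so a larger RGA share leaves less for the others. GAI and RGL3 were called in neither genotype under TMM scaling.

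The ratio of RGA to GAI, both per kilobase, was 4.21 ± 0.359 in pif4 at 37 °C and 2.13 ± 0.369 at 22 °C. In WT it was 4.29 ± 0.718 at 37 °C and 1.96 ± 0.0871 at 22 °C. RGA transcripts per RGL1 transcript numbered 41.6 ± 10.5 in pif4 at 37 °C and 4.54 ± 0.679 at 22 °C, and 56.0 ± 12.1 in WT at 37 °C and 5.13 ± 0.773 at 22 °C. These ratios are given as a description, with no test.

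Among receptor transcripts, GID1B made up 39.9 ± 6.30% in pif4 at 37 °C and 27.5 ± 3.92% at 22 °C, and 47.3 ± 8.23% in WT at 37 °C and 22.5 ± 2.39% at 22 °C. GID1C held 12.2 ± 0.609% in pif4 at 37 °C and 25.5 ± 5.92% at 22 °C, and 13.7 ± 2.27% in WT at 37 °C and 25.7 ± 1.41% at 22 °C. The 2 shares changed places between temperatures in WT: GID1B lay at 38.4 to 54.6% and GID1C at 11.5 to 16.01% at 37 °C, against 20.8 to 25.3% and 24.1 to 26.6% at 22 °C. Their order at 22 °C in WT rests on the length correction. Before it, GID1B had 11.3 to 12.4 CPM and GID1C 11.7 to 13.1 CPM in unheated WT, which overlap. There were 3.29 ± 0.605 GID1B transcripts per GID1C transcript in pif4 at 37 °C and 1.12 ± 0.278 at 22 °C, and 3.48 ± 0.737 in WT at 37 °C and 0.879 ± 0.0894 at 22 °C. GID1A held 47.9 ± 6.13% in pif4 at 37 °C and 47.0 ± 7.11% at 22 °C, and 39.0 ± 9.25% in WT at 37 °C and 51.8 ± 3.09% at 22 °C.

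The balance of receptor to DELLA transcripts overlapped between temperatures. There were 39.0 ± 8.77 receptor transcripts per 100 DELLA transcripts in pif4 at 37 °C and 32.1 ± 8.12 at 22 °C. In WT there were 28.7 ± 5.59 at 37 °C and 30.7 ± 5.11 at 22 °C (SD, n = 3 each).

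**Figure D4:**
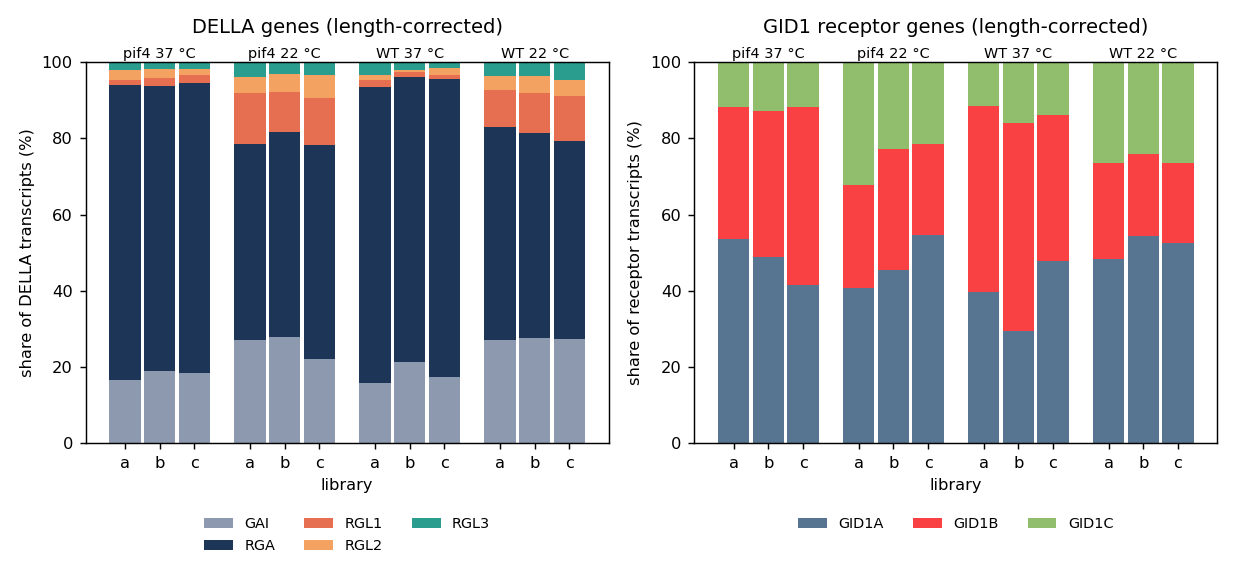
Share of each gene (y axis, percent, length-corrected) in the DELLA transcripts (left) and the GID1 transcripts (right) of every library, 3 per group. RGA fills 74.6 to 78.1% of the DELLA transcripts in the heated libraries, against 51.5 to 56.2% in the unheated ones, and GID1B takes a larger part of the receptors at 37 °C.

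Per kilobase, the order of the 9 transcripts at 22 °C began with RGA (43.3 CPM per kb in mean in pif4 and 46.3 in WT) and GAI (20.8 in pif4 and 23.5 in WT), each separate from its neighbours. SLY1 and GID1A followed and overlapped each other. RGL1 came next, overlapping GID1A and GID1B in pif4 and separate from its neighbours in WT. GID1B stood above GID1C in pif4 with overlap and below it without overlap in WT, where their CPM before length correction overlapped. RGL2 and RGL3 were lowest and overlapped. At 37 °C RGA stood alone at the top, at 77.7 CPM per kb in pif4 and 97.3 in WT. GAI, SLY1, GID1A and GID1B came next, from 15.8 to 18.6 CPM per kb in pif4 and 13.8 to 22.7 in WT, with GAI separate in WT and in overlap with its neighbours in pif4. GID1C followed, and the 3 RGL genes were lowest, from 1.89 to 2.24 CPM per kb in pif4 and 1.52 to 3.00 in WT, overlapping one another.

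Between genotypes no call was made on the chain. At 22 °C the pif4 over WT differences ran from -0.27 ± 0.38 (RGL3) to 0.25 ± 0.24 (GID1B) on the log2 scale, on a background of 0.0852% of genes called, 0.0692% higher and 0.0160% lower. At 37 °C they ran from -0.57 ± 0.41 (RGL3) to 0.55 ± 0.43 (RGL2), on a background of 0.0533% called, 0.0373% higher and 0.0160% lower. None of the 9 genes reached an unadjusted p under 0.05 in either comparison by edgeR, and DESeq2 called none of them. GAI had 42.3 to 48.9 CPM in heated pif4, below the 52.7 to 56.9 CPM of heated WT, and GID1A had 32.04 to 38.1 CPM in heated pif4, above the 21.6 to 31.6 CPM of heated WT. The other 7 genes overlapped, and at 22 °C all 9 did, on backgrounds of 11.7% and 10.5% of genes without overlap, and the GAI and GID1A differences were -0.31 ± 0.18 (edgeR adjusted p = 0.582) and 0.43 ± 0.22 (edgeR adjusted p = 0.522). Seed storage markers, 5 genes, summed to 678 to 1265 CPM in pif4 and 140 to 462 CPM in WT at 37 °C, and to 474 to 688 CPM in pif4 and 47.3 to 266 CPM in WT at 22 °C, and their part in these comparisons was not tested.

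No difference in the heat effect between genotypes was called for any of the 9 genes. The differences, pif4 minus WT, ran from -0.35 ± 0.34 (GID1B) to 0.59 ± 0.31 (GID1A). edgeR called 0.00% of genes, with 1025 of 18774 genes at an unadjusted p under 0.05 and 2 genes called by DESeq2, none of them among the 9.

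Of 14 gibberellin synthesis genes 9 could be tested. In pif4 2 were called higher and 4 lower with heat, with a median log2 value of -0.94 against -0.10 for all genes. In WT 1 was higher and 4 lower, with a median of -1.17 against -0.12, beside 49.7% of all genes called in pif4 and 51.5% in WT. GA3OX1, which makes the active hormone, rose to 88.3 ± 12.1 CPM in heated pif4, against 19.1 ± 2.22 CPM in unheated pif4, and to 117 ± 16.9 CPM in heated WT, against 19.1 ± 2.68 CPM in unheated WT (2.60 ± 0.18, edgeR adjusted p = 1.50e-10). GA20OX1, which acts a step earlier, had 11 reads in heated WT and 248 in unheated WT and fell by 2.51 ± 0.87 on the log2 scale (edgeR adjusted p = 0.0218). GA2, the ent-kaurene synthase early in the route, held 0 reads in heated pif4 against 198 in unheated pif4, a level at least 40.1-fold lower by a floor of 3 reads over the group. In WT GA2 fell by 2.64 ± 0.80 (edgeR adjusted p = 0.0109), with 16 reads and 1.01 ± 1.40 CPM in heated WT. Its difference of heat effects, pif4 minus WT, was not called (-6.11 ± 2.17, edgeR adjusted p = 0.822). The WT calls of GA3OX1, GA20OX1 and GA2 also held with total counts as library size.

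The gibberellin 2-oxidases, which inactivate the hormone, had 3 of 7 genes tested, with 0 called in pif4 (median 0.41) and 2 higher in WT (median 0.65), beside 25.6% of all genes called higher in pif4 and 25.5% in WT. By edgeR at an unadjusted p, GA2OX2 and GA2OX6 had 0.120 and 0.0820 in pif4. GA2OX2 rose to 12.2 ± 2.14 CPM in heated WT, against 4.33 ± 1.47 CPM in unheated WT (1.51 ± 0.35, edgeR adjusted p = 0.00136). GA2OX6 was called higher in WT (0.65 ± 0.22, edgeR adjusted p = 0.0198) but lay at -0.36 with total counts, where GA2OX2 lay at 0.49 and neither was called.

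Of 11 genes for DELLA turnover and modification 10 were tested, with 2 higher and 2 lower in pif4 (median 0.15) and 3 higher and 1 lower in WT (median 0.25). These shares lie below the 49.7% of all genes called in pif4 and 51.5% in WT. ASK1, the SKP1 subunit of the ligase that holds SLY1, rose to 677 ± 78.4 CPM in heated WT, against 239 ± 59.6 CPM in unheated WT (1.50 ± 0.17, edgeR adjusted p = 5.08e-07), and was called with total counts too (0.49). The scaffold CUL1 was called higher (0.95 ± 0.15, edgeR adjusted p = 1.78e-05) but lay at -0.07 with total counts. OTS2, a protease that removes SUMO from DELLA proteins, fell by 2.26 ± 0.48 (edgeR adjusted p = 0.000668), with 32 reads in heated and 525 in unheated WT. With total counts 1 gene was higher and 8 lower in each genotype. Beside these, 1755 of all 18774 genes were higher and 11641 lower in pif4, and 1785 higher and 11642 lower in WT. Of those calls 13.1% in pif4 and 13.3% in WT were higher.

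Of 12 tested transcription factors that bind DELLA proteins, 3 were higher and 3 lower in pif4 (median -0.06) and 4 higher and 2 lower in WT (median 0.07). These shares lie near the 49.7% of all genes called in pif4 and 51.5% in WT. PIF4 itself was called higher in WT (1.51 ± 0.28, edgeR adjusted p = 0.000147), a value of 0.49 that was not called with total counts. PIF3, a growth factor of darkness, had 145 ± 9.96 CPM in heated and 61.6 ± 4.21 CPM in unheated WT (1.24 ± 0.15, edgeR adjusted p = 8.22e-07), and lay at 0.22, not called, with total counts. JKD, an indeterminate-domain factor of the root, fell by 1.62 ± 0.18 (edgeR adjusted p = 2.18e-07) and SPT, a restrainer of growth, by 0.72 ± 0.17 (edgeR adjusted p = 0.00169). With total counts the list had 0 higher and 9 lower in pif4 and 0 and 8 in WT. On that scale 1755 of all 18774 genes were higher and 11641 lower in pif4, and 1785 higher and 11642 lower in WT.

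Among 10 genes known as direct targets that DELLA proteins raise, 4 were higher and 3 lower in pif4 (median -0.04), and 3 higher and 3 lower in WT (median 0.38), beside 49.7% of all genes called in pif4 and 51.5% in WT. GA3OX1, described above, is also on this list and had the largest rise in WT. XERICO, a RING protein that links gibberellin to abscisic acid, had 87.6 ± 24.8 CPM in heated and 46.1 ± 6.17 CPM in unheated WT (0.93 ± 0.19, edgeR adjusted p = 0.000348), but lay at -0.10 with total counts. WRKY27 and BHLH137 fell by 3.61 ± 0.79 and 2.06 ± 0.53 (edgeR adjusted p = 0.000807 and 0.00308), WRKY27 with 6 reads in heated and 272 in unheated WT. The GRAS protein SCL3 was called in neither genotype (0.51 ± 0.23 in WT, edgeR adjusted p = 0.0754). With total counts 1 gene was higher and 5 lower in each genotype. All 18774 genes then gave 1755 higher and 11641 lower in pif4, and 1785 higher and 11642 lower in WT.

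The GASA genes, small cysteine-rich peptides named for their induction by gibberellin, were tested in 7 of 9 cases. In pif4 5 were higher and 0 lower by edgeR (median 1.08), and in WT 4 were higher and 0 lower (median 0.99). Over all genes 25.6% were higher and 24.1% lower in pif4 (median -0.10), and 25.5% higher and 26.0% lower in WT (median -0.12). GASA1 rose to 7671 ± 815 CPM in heated pif4, against 615 ± 22.0 CPM in unheated pif4, and to 7230 ± 1177 CPM in heated WT, against 600.5 ± 16.6 CPM in unheated WT (3.59 ± 0.15, edgeR adjusted p = 8.00e-14). It was called with total counts too (2.57). GASA14 rose by 1.58 ± 0.13 in WT (edgeR adjusted p = 4.56e-09). With total counts 1 gene was higher and 1 lower in pif4, and 2 higher and 1 lower in WT. Over all 18774 genes 1755 were then higher and 11641 lower in pif4, and 1785 higher and 11642 lower in WT.

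The genes whose pattern over the 12 libraries came closest to RGL1, among 13586 with a mean of at least 5 CPM, were AT4G34881, HXK1 (AT4G29130, a hexokinase) and AT2G30620, with Pearson r of 0.988, 0.987 and 0.986 of log2(CPM + 1). For GID1B they were LIMYB (AT5G05800), AT4G31240 and AT3G25495 (r = 0.979, 0.973 and 0.971). SLY1 had looser neighbours, TRP4 (AT5G13820), AT3G03140 and IPMS2 (AT1G74040), with r of 0.915, 0.901 and 0.849. All 12 libraries share the scaling and fall into 2 temperatures, so these values describe likeness only.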

How the data were processed

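The authors deposited a table of whole-number read counts for each gene, as its headers name them. The build was TAIR10, per the submitters' processing notes; the aligner, counter, annotation and use of strand were not given in the sources at hand. The table lists 33602 genes, 1274 without values. Columns were tied to genotype and temperature by name, and the letters a to c to no labelled replicate number. Of 48 per-sample columns 36 were not used (length-corrected values, and 12 libraries with line codes that no label explains), so the planned comparisons with PIF4-L lines were not run.

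The 12 libraries were fitted together in edgeR 4.0.16 (R 4.3.3; filterByExpr, TMM, robust quasi-likelihood F test, two-sided), with Benjamini-Hochberg adjustment over 18774 genes and a threshold of 0.05. SEs are the log2 change over the square root of F. The biological coefficient of variation was 23.4%. The procedure was tested on simulated data with 200 genes changed in heated WT only, as many raised as lowered. With so few and balanced changes that test cannot check the scaling of these data. Alternatives were RLE, upper-quartile and total-count scaling, no filter, DESeq2 1.42.0, each library left out, a block by letter and, chosen after seeing the data, the libraries lettered a left out. Floors cover counting error only.

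The genes and lists were chosen with earlier results of these data known. Of each other list the text names up to 2 called genes with the largest rise and 2 with the largest fall in WT; SNE and SCL3 were named after their values were seen. Likeness used the DELLA gene and the receptor gene with the largest heat change in WT, and SLY1, with 3 neighbours each. RefSeq TAIR10.1 gave transcript lengths and overlaps.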

Additional observations from a re-analysis of the deposited data

How the results depend on the processing

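Of the log2 values of the 9 genes under the alternatives other than leaving out 1 library, 279 kept their direction and side of the threshold, 12 gained a call, 7 lost one and 17 changed sign; with 1 library left out, 506 kept both, 1 gained a call, 5 lost one and 28 changed sign. All 180 comparisons of family shares, sums and ratios with 1 library left out moved by less than 1 SD. With 3 libraries in a group a mean cannot move further than that, so this says nothing on their stability. RGL1 was called lower with heat in all 19 alternatives in both genotypes. The cause of the changes below was not tested. The heated RGL1 values rest on 12 to 30 reads per library.

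With total counts as library size 0 of the 9 genes were called higher and 6 lower with heat in pif4, and 0 higher and 7 lower in WT. Beside these, 1755 of all 18774 genes were higher and 11641 lower in pif4, and 1785 higher and 11642 lower in WT. In pif4 RGA lay at -0.1766, GID1A at -0.4295 and SLY1 at -0.6737, and in WT GID1A lay at -1.007 and SLY1 at -0.8903. Upper-quartile scaling gave 4 genes lower in pif4 and 3 in WT, GID1C among them in both. Of all 18774 genes it gave 6671 lower in pif4 and 6737 in WT. In WT that scaling put GID1A at -0.2844 and SLY1 at -0.1861. DESeq2 gave 2 genes lower in pif4, beside 5301 of all 18774, and -0.0401 for GID1A in WT. RLE scaling gave GID1A -0.0393 in WT. For the difference of heat effects GID1C lay at -0.0114 with RLE, -0.0124 with upper-quartile scaling and -0.0128 with DESeq2. Without the libraries lettered a, an alternative chosen after seeing the data, 1 gene was lower in WT, beside 4228 of all 19295. In that fit GAI lay at 0.0126 and GID1A at -0.1156 for heat in WT, and RGL1 at -0.1388 for pif4 over WT at 22 °C. RGL3 lay at 0.1255 and SLY1 at -0.0424 for the difference of heat effects.

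For pif4 over WT at 22 °C, 16 genes of the whole table were called, against 8 with total counts, 52 with no filter, 91 by DESeq2 and 2 without the libraries lettered a. At 37 °C 10 were called, against 76 with no filter, 159 by DESeq2 and 3 without the libraries lettered a. For the difference of heat effects 0 were called by edgeR, with 1025 at an unadjusted p under 0.05, against 2 with no filter and 2 by DESeq2.

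With each library left out in turn, 1 to 2 of the 9 genes were called lower in pif4 and 1 to 2 in WT. Of 19020 to 19379 genes tested, 3681 to 4988 were then lower in pif4 and 4046 to 5170 in WT. The whole table had 0 to 1 calls for the difference of heat effects, and for pif4 over WT 3 to 40 at 22 °C and 2 to 18 at 37 °C. Heat values then ranged from -0.311 to 0.0316 for GAI in pif4, and in WT from -0.1047 to 0.0401 for GAI, -0.1465 to 0.1544 for GID1A and -0.0472 to 0.2253 for SLY1. For pif4 over WT at 22 °C they ranged from -0.2096 to 0.0291 for RGA, -0.1272 to 0.3055 for RGL1 and -0.1256 to 0.1128 for SLY1, and at 37 °C from -0.3837 to 0.1014 for GID1B and -0.1956 to 0.1144 for GID1C. Differences of heat effects ranged from -0.2698 to 0.0759 for GAI, -0.1524 to 0.2777 for RGL1, -0.0044 to 0.9306 for RGL2, -0.5104 to 0.118 for RGL3 and -0.0936 to 0.2168 for GID1C.

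The column letters match no replicate number of the labels. The deviations of libraries of the same letter from their group means correlated at -0.0897 to 0.324 over 18 pairs (median 0.0921), against a median of -0.0591 for 36 pairs of different letters. All 6 pairs of libraries lettered a lay at 0.127 to 0.324, so these deviated together across the 4 groups. In each group library a also had the fewest reads, 3176106 to 5940624 in total. The part of depth in this shared deviation was not tested. Same-letter pairs of b and c ran from -0.0897 to 0.1305, most of them under 0.1, and the letters were not taken as pairs. With the replicate block by letter the whole table had 9794 calls for heat in pif4, 10087 for heat in WT, 0 for the difference of heat effects, and for pif4 over WT 27 at 22 °C and 55 at 37 °C. A fit of only WT and pif4 libraries is the fit reported, since no others were used.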
